A study of Mus musculus with 32 samples.

Results

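The comparison was that of YUMM3.3 cells given Activin-A and IFN-γ together for 12 h with cells given Activin-A alone for 12 h, so that it measured the response to IFN-γ of melanoma cells that also received Activin-A. Wells were chosen by their labels alone: 4 wells with both factors and 4 with Activin-A, 8 of the 32 wells of the experiment. YUMM3.3 is a *Braf* mutant mouse melanoma cell line, and the 4 wells of a group were 4 wells of this single line, with no stated separation by culture or day, so that p-values measure the spread between wells, which may be technical. Per the labels, wells were given 40 ng/ml Activin-A in both groups and 20 ng/ml IFN-γ in one, and mRNA was measured by BRB-seq, in which barcoded cDNA of many samples is pooled and the 3′ ends of transcripts are counted. A caption of the study gives another Activin-A dose than its methods and the labels. The response was set beside that of cells given 20 ng/ml IFN-γ without Activin-A against untreated cells at 12 h, and beside the same comparison at 4 h, with 4 wells in each of these groups. Since RNA of a whole well was measured, more RNA per cell and more cells with that RNA cannot be told apart.

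IFN-γ is a cytokine of T cells and natural killer cells. Its receptor activates the kinases Jak1 and Jak2, which phosphorylate STAT transcription factors that bind GAS motifs in genes such as *Irf1*, whose product then binds ISRE motifs in a further set of genes. The response is known for raising antigen processing and MHC class I on tumor cells, GTPases that attack intracellular pathogens, chemokines and the checkpoint ligand PD-L1. Activin-A is a ligand of the TGF-β family that signals through activin receptors and the transcription factors Smad2 and Smad3.

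Totals of the 8 wells ranged from 803370 to 1249145 counts, with a median of 986904 with Activin-A and 898254 with both factors. The floor of detection, set at 3 counts, lay at 2.4 to 3.73 CPM, the count of a gene scaled to a fixed total per well, and covers counting error only. Levels are given as CPM after TMM normalization. Within each group, pairs of wells varied beyond counting noise (chi-squared per gene from 1.21 to 1.45), and none of these 8 wells stood apart. Principal components of the 16 wells at 12 h were computed on the 500 most variable genes above a minimum level. The first held 83.9% of the variance of these genes and separated wells with IFN-γ from those without. The second held 3.4% and separated wells with Activin-A from those without. The genes were chosen by their variance over the same wells, so that these shares do not hold for all genes. Of 16 melanocyte genes sought, 15 were in the table and 9 had enough counts to be tested. Among them *Dct*, an enzyme of pigment synthesis, was between 69.2 and 88.3 CPM. *Mitf*, of the same list, was too low to be tested, at 3.21 to 9.31 CPM with Activin-A and 6.76 to 14 CPM with both factors. Of 7 fibroblast markers 5 were in the table, with a summed level of 304.4 to 351.6 CPM with Activin-A and 175.2 to 185.6 CPM with both factors. Of the markers of leukocytes, 3 of 8 were in the table, with a summed level of 7.77 to 17.6 CPM with Activin-A and 12.9 to 21.4 CPM with both factors, and none of 5 endothelial markers was in the table. Of 4 keratinocyte markers 1 was in the table, at 3.1 to 5.83 CPM with Activin-A and 3.51 to 7.78 CPM with both factors.

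With edgeR's quasi-likelihood test, adjusted p-values (Benjamini-Hochberg) were under 0.05 for 863 of 8971 tested genes (9.62%), 554 of them higher with both factors (6.18%) and 309 lower (3.44%). The median log2 fold change (log2FC) over all tested genes was -0.00755. The higher genes had the larger changes: 27 were at least 16-fold higher, 73 between 4- and 16-fold, 117 between 2- and 4-fold and 337 less than 2-fold. Of the lower genes, 0 were at least 16-fold lower, 2 were between 4- and 16-fold, 40 between 2- and 4-fold and 267 less than 2-fold. The median change was 1.69-fold among the higher and 1.41-fold among the lower genes. Wells of both groups did not overlap in CPM for 479 of the 554 higher genes (86.5%) and for 234 of the 309 lower genes (75.7%). Among all tested genes this held for 1094 (12.2%). The genes were called from the same wells, so that the larger shares among them follow in part from the calls. With DESeq2's Wald test, 549 genes were called, 401 higher and 148 lower, of which 528 were among the 863.

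**Figure D1:**
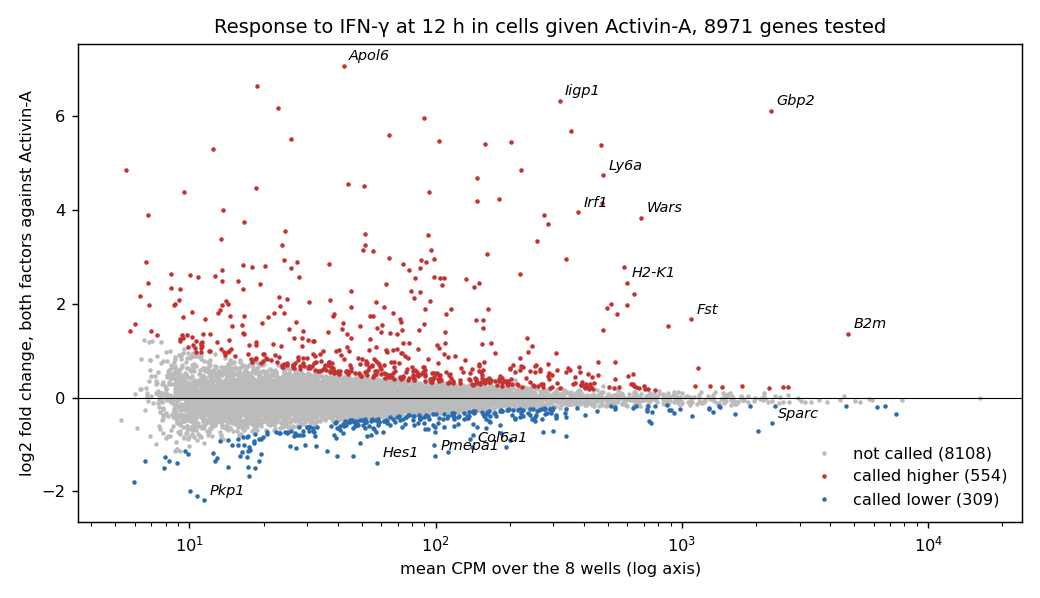
Log2 fold change at 12 h of both factors against Activin-A (vertical axis) and mean CPM over the 8 wells (horizontal log axis) for the 8971 tested genes, with 554 called higher in red, 309 called lower in blue and the others in gray. The highest value is 7.08 (*Apol6*) and the lowest -2.19 (*Pkp1*).

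*Irf1*, a transcription factor induced early by IFN-γ, was at 45.8, 45.7, 43.4 and 47.2 CPM in the 4 wells with Activin-A and at 713.7, 733.4, 659 and 739.5 CPM when IFN-γ was added (log2FC 3.96, SE 0.09, adjusted p = 1.06e-63). The groups were far apart, and the 4 wells of each group were close to each other. *Stat2* and *Irf9*, subunits of the factor ISGF3, rose 5.37-fold and 3.82-fold, *Stat3* rose 3.72-fold, and *Irf7*, an activator of type I interferon genes, rose 4.83-fold. Of the 12 tested genes for IFN receptors, Janus kinases and Stat proteins, 6 were higher and 0 lower, beside 6.18% higher and 3.44% lower among all tested genes, and the median log2FC was 0.54. The same shares stand beside the counts of the lists that follow. Neither chain of the IFN-γ receptor was among them. Of 7 tested interferon regulatory factors, 5 were higher. With DESeq2 these counts were 3 and 4, and the first was 4 in a fit with a replicate block. Leaving out single wells took the first count down to 3, without Activin-A replicate 4 or replicate 2 or 3 with both factors, and the second to 4, with *Jak2* (log2FC 0.60, adjusted p = 0.0312) and *Irf8* (log2FC 0.42, adjusted p = 0.0288) among those lost. *Jak2* was lost without Activin-A replicate 2 or 4 or without replicate 2 or 3 with both factors, and *Irf8* without Activin-A replicate 2 or 3 or replicate 2, 3 or 4 with both factors. Over these settings their adjusted p rose to 0.209 and 0.145, and with DESeq2 it was 0.166 and 0.155.

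Feedback inhibitors of cytokine signaling rose in part. *Socs1*, which blocks Janus kinases, was at 38.5, 26.2, 23.8 and 29.8 CPM with Activin-A and at 147.5, 127.3, 173.4 and 127.3 CPM when IFN-γ was added (log2FC 2.25, SE 0.14, adjusted p = 7.35e-27). *Socs3* rose 3.07-fold and *Usp18*, which restrains type I interferon receptors, 2.88-fold. In contrast, *Socs2*, an inhibitor of growth hormone signaling, fell by 0.96 on the log2 scale (adjusted p = 0.0082), a call that was lost without Activin-A replicate 3 (adjusted p = 0.104) and with DESeq2 (adjusted p = 0.0644). The other 13 of the 17 tested feedback genes were not called.

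Promoter windows of 5 of these IFN-γ response genes are shown because they hold the motifs of the 2 steps described above, with values for each gene in the text. The windows run from 250 bases before to 50 bases after a start site in RefSeq's annotation of GRCm38.p6, 5′ to 3′ along the gene's strand. Capitals mark matches to the GAS motif TTCNNNGAA, which reads the same on both strands, or to the ISRE core GAAANNGAAA on either strand. The *Irf1* window, on the plus strand (chr11:53769764-53770063), has a GAS match whose first base lies 90 bases before the start. The *Socs1* window, on the minus strand (chr16:10785487-10785786), and the *Irgm1* window, on the minus strand (chr11:48871371-48871670), each have 2 ISRE matches that overlap by 4 bases. The *Gbp2* window, on the plus strand (chr3:142620413-142620712), and the *Cxcl10* window, on the minus strand (chr5:92348840-92349139), have 1 ISRE match each, 59 and 213 bases before the start. The *Gbp2* match lies on the opposite strand.
Irf1: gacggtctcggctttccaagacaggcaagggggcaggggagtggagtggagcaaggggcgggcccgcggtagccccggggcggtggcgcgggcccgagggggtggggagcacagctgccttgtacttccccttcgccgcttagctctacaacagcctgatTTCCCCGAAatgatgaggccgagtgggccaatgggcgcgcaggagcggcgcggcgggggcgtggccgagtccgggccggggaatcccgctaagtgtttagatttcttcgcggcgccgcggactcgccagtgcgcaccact
Socs1: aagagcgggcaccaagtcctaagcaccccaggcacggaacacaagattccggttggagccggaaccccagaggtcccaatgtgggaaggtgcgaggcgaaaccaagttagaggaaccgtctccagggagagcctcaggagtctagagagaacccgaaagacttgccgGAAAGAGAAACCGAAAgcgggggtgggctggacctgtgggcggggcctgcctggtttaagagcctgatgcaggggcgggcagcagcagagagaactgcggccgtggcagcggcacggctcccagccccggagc
Irgm1: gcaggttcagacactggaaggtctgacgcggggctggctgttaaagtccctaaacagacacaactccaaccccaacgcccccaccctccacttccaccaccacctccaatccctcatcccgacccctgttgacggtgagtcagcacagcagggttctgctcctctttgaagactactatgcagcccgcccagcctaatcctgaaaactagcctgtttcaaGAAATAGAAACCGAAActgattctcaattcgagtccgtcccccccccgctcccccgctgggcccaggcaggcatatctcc
Gbp2: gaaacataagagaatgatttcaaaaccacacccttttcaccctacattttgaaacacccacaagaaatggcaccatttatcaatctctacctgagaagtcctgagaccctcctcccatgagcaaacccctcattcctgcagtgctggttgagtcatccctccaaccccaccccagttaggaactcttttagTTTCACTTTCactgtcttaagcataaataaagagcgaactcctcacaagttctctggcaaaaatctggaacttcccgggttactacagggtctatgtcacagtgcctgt
Cxcl10: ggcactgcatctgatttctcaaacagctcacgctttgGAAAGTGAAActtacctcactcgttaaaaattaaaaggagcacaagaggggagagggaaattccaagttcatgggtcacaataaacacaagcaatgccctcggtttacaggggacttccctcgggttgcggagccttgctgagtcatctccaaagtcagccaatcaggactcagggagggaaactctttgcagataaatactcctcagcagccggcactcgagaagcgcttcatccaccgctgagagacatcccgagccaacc
A second *Irf1* window and those of *Tap1*, *Psmb9*, *Cxcl9*, *Cd274* and *Ifi44* held no match, which says only that these letters were not in these 300 bases. Over all 32851 windows of the table, 8.3% held a GAS match and 3.44% an ISRE match. Among windows of the tested genes, of which 7192 of 8971 had one, these shares were 6.41% and 3.14%, and among windows of the genes called higher, of which 445 of 554 had one, they were 9.06% and 12.4%. These shares are descriptions without a test, and a match is not a bound site.

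Guanylate-binding proteins (Gbp) and immunity-related GTPases (Irg), which assemble on vacuoles of intracellular pathogens, were among the genes with the largest changes. *Gbp2* was at 61, 71.9, 62.1 and 64.6 CPM with Activin-A and at 4617, 4405, 4628 and 4487 CPM when IFN-γ was added (log2FC 6.13, SE 0.07, adjusted p = 5.96e-90). *Iigp1* was at 10.4, 9.71, 4.14 and 4.97 CPM against 625.2, 628.7, 612.3 and 651.9 CPM (log2FC 6.34, SE 0.13, adjusted p = 4.73e-68). In both genes every well with both factors was far above every well without IFN-γ. *Irgm1*, which regulates the other Irg proteins, rose from between 45 and 55.4 CPM to between 878.8 and 921.3 CPM (log2FC 4.16, SE 0.09, adjusted p = 1.21e-66). *Gbp3*, *Gbp7*, *Igtp* and *Ifi47* rose 51.4-, 43.7-, 41.9- and 29.1-fold. *Gbp6* and *Tgtp1* were near 0 without IFN-γ, with 1 and 2 counts over the 4 wells, and the count ratios were 151.5 (95% exact interval 26.7 to 6030) and 91.3 (24.9 to 760.1). Of the tested genes, 5 of 5 Gbp (median log2FC 5.68) and 8 of 8 Irg genes (median 5.13) were higher. Members such as *Gbp6* passed the filter on low counts through wells with IFN-γ and so had to differ, and with at least 10 counts asked of every sample 2 and 3 genes were called, so that these counts and medians are descriptions. The same holds for members of other lists that were near 0 without IFN-γ. Of the lists, 11 Gbp and 12 Irg genes were sought, and 4 and 2 of those in the table were removed as too low. Members of these families have related sequences, and how reads shared between copies were counted was not stated, so that single members are uncertain.

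Other genes with large changes differ in function. *Apol6*, an apolipoprotein L gene, had 2 counts over the wells with Activin-A and 61 to 85 counts in each well with both factors (ratio 170.5, 95% exact interval 46.8 to 1414). *Il18bp*, the secreted antagonist of interleukin 18, was at 2.41, 5.83, 1.03 and 1.24 CPM against 158.8, 182.5, 198.9 and 169.4 CPM (log2FC 5.96, SE 0.22, adjusted p = 6.64e-45). *Zbp1*, a sensor of Z-form nucleic acid that can trigger necroptosis, rose 44.4-fold, and *Ly6c1* and *Ly6a*, surface proteins of the Ly6 family, rose 48.6- and 26.8-fold. *Wars*, the tryptophanyl-tRNA synthetase, went from between 78.7 and 103.1 CPM to between 1160 and 1325 CPM (log2FC 3.84, SE 0.07, adjusted p = 1.29e-69). *Apol9a* and *Apol9b*, near-identical copies, rose 6- and 4.83-fold.

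**Figure D2:**
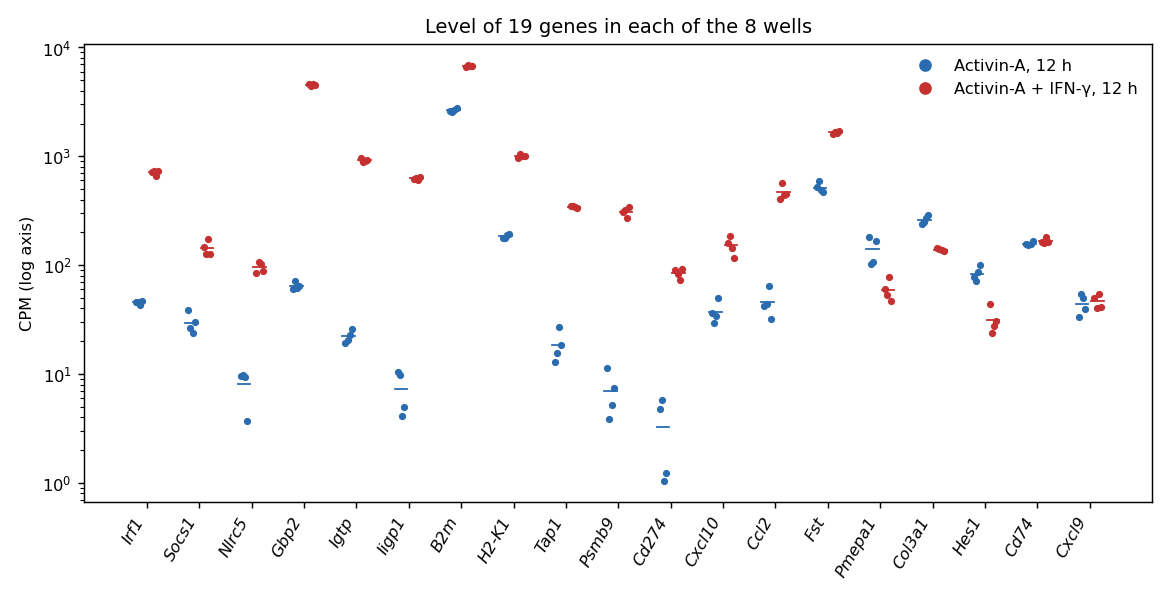
CPM on a log axis of 19 genes in the 4 wells with Activin-A (blue) and the 4 with both factors (red) at 12 h, each point a well and each bar the mean of 4. *Gbp2* rises from 64.9 to 4534 CPM on average, *Pmepa1*, *Col3a1* and *Hes1* are lower with both factors, and *Cd74* and *Cxcl9* overlap.

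Genes of antigen presentation by MHC class I rose together. *Nlrc5*, the transactivator of MHC class I genes, was at 9.64, 9.71, 9.31 and 3.73 CPM with Activin-A and at 85.1, 105.9, 103.4 and 87.6 CPM when IFN-γ was added (log2FC 3.49, SE 0.20, adjusted p = 2.53e-29). The heavy chain *H2-K1* was at 176.7, 176.8, 190.3 and 195.1 CPM against 970.1, 1050, 1004 and 1003 CPM (log2FC 2.45, SE 0.07, adjusted p = 2.74e-55), and *H2-D1* rose 3.96-fold. *B2m*, the light chain, rose 2.57-fold from between 2542 and 2753 CPM to between 6653 and 6934 CPM (adjusted p = 1.73e-48). The non-classical *H2-T23* rose 18.4-fold. Of the 8 tested genes of this list, out of 16 sought and 10 in the table, 8 were higher, with a median log2FC of 2.58, and 5 were called when at least 10 counts were asked of every sample. *H2-Q4*, of a family of near-identical genes, had 2 counts over the wells with Activin-A (ratio 49.4, 95% exact interval 13.3 to 414.1).

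Genes of peptide supply rose as well. *Tap1*, a subunit of the transporter that carries peptides into the endoplasmic reticulum, was at 12.9, 15.5, 26.9 and 18.6 CPM with Activin-A and at 348.3, 349.3, 343.4 and 335.3 CPM when IFN-γ was added (log2FC 4.24, SE 0.12, adjusted p = 5.35e-54). *Tap2* rose 8.87-fold, *Tapbp*, which holds empty class I molecules at the transporter, 7.78-fold, and *Erap1*, which trims peptides, 7.25-fold. Of 8 tested genes for loading, 5 were higher, or 3 with at least 10 counts in every sample, while the general chaperones of the list were not called. The inducible proteasome subunits *Psmb8*, *Psmb9* and *Psmb10* rose 25.8-, 42.6- and 13.1-fold, and the activator subunits *Psme1* and *Psme2* rose 4.62- and 6.88-fold. Of 6 tested inducible subunits 6 were higher (median log2FC 3.25), or 3 with at least 10 counts in every sample, against 3 of 14 constitutive subunits (median 0.10), of which *Psma5*, at 1.38-fold, was the most changed. In DESeq2 1 of the 14 was called.

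For MHC class II, none of 6 tested genes of that pathway was called, with log2FC between -0.18 and 0.36, and with 9.62% of all tested genes called nothing is read from a count of 0 among 6. *Cd74*, the invariant chain, was at 155.8, 154.4, 155.1 and 166.5 CPM with Activin-A and at 163.4, 158.9, 180 and 162.4 CPM when IFN-γ was added (log2FC 0.08, SE 0.09, adjusted p = 0.743). *H2-Aa* and *H2-Ab1* had log2FC of 0.06 (SE 0.15) and 0.36 (SE 0.24). *Ciita*, the transactivator of class II genes, had 1, 2, 2 and 0 counts against 5, 6, 0 and 3 counts, too few to pass the filter on low counts. It was 1 of 5 genes of the list that were removed as too low.

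Chemokine genes did not all follow. *Ccl2*, which attracts monocytes, was at 42.6, 43.7, 64.1 and 32.3 CPM with Activin-A and at 406.2, 570.1, 445.6 and 450.9 CPM when IFN-γ was added (log2FC 3.35, SE 0.11, adjusted p = 4.40e-48). *Cxcl10*, which attracts activated T cells, was at 36.1, 29.1, 34.1 and 49.7 CPM against 161.1, 187, 144.5 and 115.7 CPM (log2FC 2.05, SE 0.15, adjusted p = 1.26e-22). *Cx3cl1* rose 6.58-fold and *Ccl7* 6.21-fold. *Cxcl9*, a further ligand of the same receptor as *Cxcl10*, was at 33.7, 54.4, 49.6 and 39.8 CPM against 49.9, 40.6, 54.5 and 40.9 CPM, so that the wells overlapped (log2FC 0.08, SE 0.17, adjusted p = 0.885). In all, 4 of 7 tested chemokines were higher and 1 lower, of 17 sought.

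Among checkpoint ligands, *Cd274*, which encodes PD-L1, was at 4.82, 5.83, 1.03 and 1.24 CPM with Activin-A, near the floor, and at 90.8, 82.2, 73.4 and 92.3 CPM when IFN-γ was added (log2FC 4.56, SE 0.25, adjusted p = 1.42e-30). *Cd47*, the signal that restrains phagocytosis, rose (log2FC 0.54, adjusted p = 1.04e-05). *Lgals3* rose 1.19-fold. Of 8 tested ligands and adhesion molecules 4 were higher, of which *Vcam1* (1.21-fold, adjusted p = 0.0499) lost its call in 6 of the 8 fits with a well left out, all but those without Activin-A replicate 3 or without replicate 4 with both factors. *Vcam1* also lost it with DESeq2 (adjusted p = 0.202), with RLE scaling, without the filter on low counts, with all 32 samples and with only the groups compared in the fit. Cytokine genes and receptors were higher in 7 of 12 tested cases, or 2 with at least 10 counts in every sample, with *Il15ra*, which presents interleukin 15, at 16.1-fold, *Tnfrsf1a* at 2.09-fold and the macrophage growth factor *Csf1* at 1.95-fold. *Il33*, an alarmin, was not called (log2FC -0.14, SE 0.10, adjusted p = 0.478).

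Antiviral genes rose broadly. Of 25 tested effectors 20 were higher, or 12 with at least 10 counts in every sample, and 0 lower, with a median log2FC of 1.69 against -0.00755 over all genes. *Isg15*, a ubiquitin-like modifier, was at 78.7, 59.3, 79.6 and 55.9 CPM with Activin-A and at 281.4, 300.8, 222.3 and 232.5 CPM when IFN-γ was added (log2FC 1.90, SE 0.11, adjusted p = 3.63e-28). *Oasl2* rose 8.87-fold, *Ifi44* 7.93-fold, *Samhd1*, which depletes nucleotides needed by retroviruses, 6.19-fold, *Bst2*, which tethers virions, 4.01-fold, *Oas3* 3.95-fold and *Ifitm3* 2.88-fold. Nucleic acid sensors were higher in 10 of 14 tested cases, or 4 with at least 10 counts in every sample. *Tmem173*, which encodes STING, was at 75.5, 71.9, 64.1 and 87 CPM against 125.9, 138.6, 162.3 and 142.5 CPM (log2FC 0.94, SE 0.11, adjusted p = 1.66e-11). The RNA sensor *Ddx58* rose 3.34-fold, and *Ifi203* and *Ifi204*, related members of a DNA-binding family, rose 9.6- and 5.3-fold. Of 9 tested PARP genes with *Dtx3l*, 8 were higher, or 4 with the same filter, among them *Parp14* (8.78-fold), *Dtx3l* (7.61-fold), *Parp9* (6.82-fold) and *Parp12* (5.83-fold). Of 11 tested Trim and nuclear body genes 11 were higher, or 4 with at least 10 counts in every sample, among them *Trim21* (9.52-fold), *Sp100* (2.77-fold) and *Pml* (1.68-fold).

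Genes of cell death were higher in 8 of 21 tested cases and lower in 0, beside 6.18% and 3.44% of all tested genes, and nothing is read from the count of 0. *Xaf1*, which opposes inhibitors of apoptosis, rose 7.78-fold, the inflammatory caspase *Casp4* 5.62-fold and *Mlkl*, the effector of necroptosis, 2.55-fold. *Fas*, with 1 to 2 counts in the wells with Activin-A and 7 to 10 with both factors, did not pass the filter on low counts at 12 h. At 4 h it was tested and higher (log2FC 3.34, SE 0.63, adjusted p = 8.03e-05). Its difference between times was not called (-0.73, adjusted p = 0.883). Of 16 tested p53 pathway genes 3 were higher and 2 lower, beside the same shares, and 1 of the higher genes was *Tap1*, described above. *Txnip* rose 2.13-fold and *Sat1* 1.49-fold, *Gadd45a* fell by 0.80 on the log2 scale (SE 0.11, adjusted p = 1.20e-09), and *Cdkn1a* overlapped between groups (log2FC 0.19, SE 0.11, adjusted p = 0.363). Of 8 tested NF-κB genes 0 were called, with 14 sought and 9.62% of all tested genes called, and nothing is read from this count, which was 1 without Activin-A replicate 1, 3 or 4 or without replicate 3 with both factors.

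**Figure D3:**
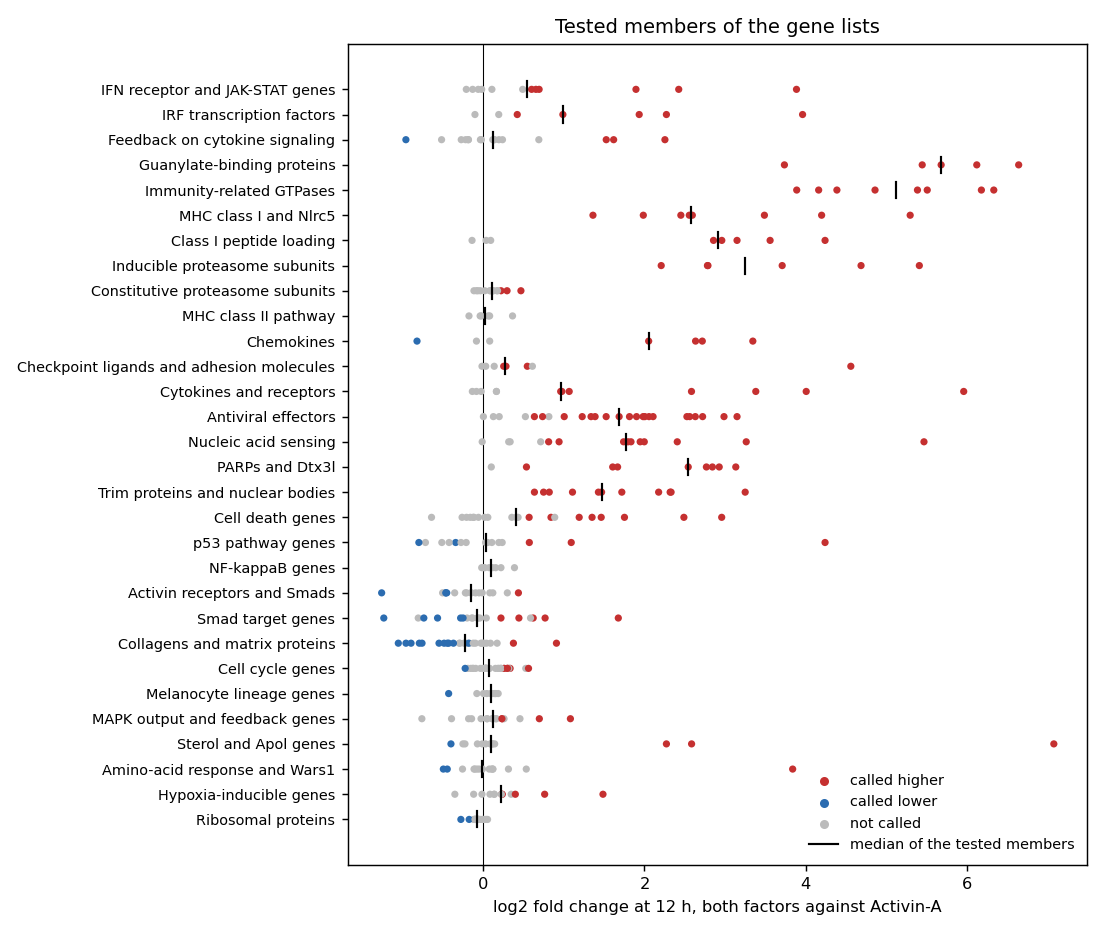
Log2 fold change at 12 h of both factors against Activin-A for each tested member of 30 gene lists, in red where called higher, in blue where called lower and in gray where not called, with the median of each list as a black line. The medians of the Gbp and Irg lists lie above 5, and 11 of 26 collagen and matrix genes are called lower.

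The genes that fell included matrix genes and genes of the Activin-A pathway. Of 26 tested collagens and matrix proteins 11 were lower and 2 higher (background 3.44% lower and 6.18% higher), and the median log2FC was -0.23. For IFN-γ against untreated cells, 10 of the 26 were lower and 2 higher (background 2.82% and 6.43%), also with a median of -0.23. *Col3a1* was at 236.9, 248.7, 268.9 and 288.3 CPM with Activin-A and at 143, 139.7, 137.8 and 134.3 CPM when IFN-γ was added (log2FC -0.90, SE 0.09, adjusted p = 7.55e-15). *Col6a1* fell by 1.06, *Col5a2* by 0.76 and *Sparc*, a collagen-binding protein, by 0.55 on the log2 scale. *Col3a1* is also a fibroblast marker, and the summed level of that marker list was 304.4 to 351.6 CPM with Activin-A and 175.2 to 185.6 CPM with both factors, with 5 of 7 markers in the table, 3 tested and 2 lower. The part of other cells in these changes was not tested.

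Among genes of the Activin-A pathway and genes named with them, changes went both ways. *Pmepa1*, a Smad-induced inhibitor of the pathway, was at 182.3, 103, 106.5 and 167.7 CPM with Activin-A and at 60.1, 53, 77.8 and 46.7 CPM when IFN-γ was added (log2FC -1.24, SE 0.14, adjusted p = 2.13e-12). *Skil* and *Ski*, which repress Smad targets, fell by 1.26 (adjusted p = 0.000827) and 0.46 (adjusted p = 0.00146), the latter call being lost without Activin-A replicate 4 (adjusted p = 0.0508). *Ccn2*, a matricellular growth factor, was at 511.6, 459.4, 452.9 and 557.9 CPM against 431.2, 371.8, 423.4 and 398.4 CPM (log2FC -0.28, SE 0.07, adjusted p = 0.00116). *Dmp1* and *Nefl*, which are not parts of the pathway itself, fell by 0.57 and 0.74. In untreated cells and with Activin-A alone, *Dmp1* averaged 108 and 170 CPM and *Nefl* 675 and 342 CPM. In contrast *Fst*, the secreted antagonist that binds and neutralizes Activin-A, was at 520.5, 592.5, 487.1 and 467.2 CPM with Activin-A and at 1611, 1664, 1638 and 1711 CPM when IFN-γ was added (log2FC 1.68, SE 0.06, adjusted p = 1.21e-48). *Fstl1* rose 1.7-fold. *Thbs1* (log2FC -0.14, adjusted p = 0.0878), *Acta2* (-0.04, adjusted p = 0.776), *Bgn* (-0.14, adjusted p = 0.137) and the inhibitory *Smad7* (-0.51, adjusted p = 0.0811) were not called, although the wells of *Smad7* did not overlap, as in 12.2% of all tested genes. Without Activin-A replicate 2 *Thbs1* was called (adjusted p = 0.0293), and *Bgn* was called without Activin-A replicate 3 or without replicate 4 with both factors (adjusted p down to 0.0246). In all, 5 Smad targets were higher and 5 lower of 19 tested, and 1 was higher and 4 lower of 17 receptors, Smads and regulators, beside 6.18% higher and 3.44% lower among all tested genes. With DESeq2, which called 401 genes higher and 148 lower of 11482, these counts were 3, 5, 0 and 2. The single higher gene of the 17 is a share near that of all genes. The 5 called receptors, Smads and regulators were 2 without replicate 3 with both factors and 3 without Activin-A replicate 1 or without replicate 1 or 4 with both factors.

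Among all genes with at least 10 counts on average in the higher group and wells that did not overlap, *Pkp1*, a desmosome protein, had the lowest log2FC. It was at 16.1, 16.5, 18.6 and 24.8 CPM with Activin-A and at 3.4, 2.25, 5.56 and 4.67 CPM when IFN-γ was added (log2FC -2.19, SE 0.39, adjusted p = 6.24e-06). *Tnnt2*, a troponin, followed (log2FC -2.09, SE 0.41, adjusted p = 5.84e-05). *Pdgfb*, the platelet-derived growth factor B chain, fell by 1.67, *Bmp4*, a TGF-β family ligand, by 1.49 and *Scx*, a tendon transcription factor, by 1.30 on the log2 scale. *Hes1*, a target of Notch, was at 77.9, 70.9, 85.8 and 100.6 CPM against 44.3, 23.7, 27.8 and 30.4 CPM (log2FC -1.39, SE 0.16, adjusted p = 8.74e-12). *Rflnb*, *Akap12* and *Glp1r* fell by 1.49, 1.48 and 1.35. A further 4, *Lat2*, *Ccn4*, *Trpa1* and *Ism1*, had log2FC between -1.49 and -1.27 from fewer than 20 CPM. They lost their calls with DESeq2 (adjusted p = 0.0611, 0.0906, 0.102 and 0.127) and when certain single wells were left out, with adjusted p up to 0.0866, 0.0982, 0.131 and 0.0911. These wells were replicate 4 with Activin-A or replicates 1 and 4 with both factors for *Lat2*, replicates 2 and 4 with both factors for *Ccn4*, replicate 2 with Activin-A or replicates 1 and 2 with both factors for *Trpa1*, and replicates 2, 3 and 4 with Activin-A or 1, 2 and 3 with both factors for *Ism1*.

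Counts of called genes in the lists of growth, lineage and metabolism are set beside the 9.62% of all tested genes. Of 31 tested cell cycle genes 5 were higher and 1 lower, with a median log2FC of 0.07. With DESeq2 3 genes of the list were called, and also without Activin-A replicate 1 or without replicate 3 or 4 with both factors. *Ccnd1*, the G1 cyclin, was at 1621, 1637, 1515 and 1615 CPM with Activin-A and at 1876, 1903, 1931 and 1917 CPM when IFN-γ was added (log2FC 0.26, SE 0.05, adjusted p = 1.23e-05), *Top2a* rose 1.26-fold, and *Mki67* overlapped between groups (log2FC -0.10, SE 0.10, adjusted p = 0.695). Of 9 tested melanocyte genes 1 was called, a share near that of all genes. It was *Sox9*, which fell by 0.43 on the log2 scale (adjusted p = 0.00291), whereas *Dct* (log2FC -0.08, adjusted p = 0.821) and *Tyrp1* (0.15, adjusted p = 0.554) were not. *Dusp6* and *Egr1*, read-outs of MAPK signaling, rose 1.62- and 2.11-fold, and 4 of 17 genes of that list were higher. With DESeq2 2 were called, and also without Activin-A replicate 1, 2 or 3 or without replicate 2 or 4 with both factors. Hypoxia-inducible genes were higher in 5 of 13 cases, with *Hk2*, which starts glycolysis, at 2.8-fold and *Bnip3* at 1.69-fold. Of 14 tested sterol and Apol genes, the 3 higher were *Apol6*, *Apol9a* and *Apol9b*, none of which makes sterol, and 1 gene was lower. Of 15 tested genes of the amino-acid response, *Wars* was higher and *Cth* and *Psph* were lower, and 1 of the 15 was called by DESeq2 and without replicate 1 with both factors. *Psph* lost its call without replicate 1 or 3 with both factors (adjusted p up to 0.0937). Of 14 complement genes sought 1 passed the filter on low counts, *Serping1*, the inhibitor of C1, which rose 11.1-fold. With DESeq2 2 genes of the list were higher, and the count called ranged from 0 to 3 over all settings. Of 20 ribosomal protein genes 2 were called, both lower by at most 0.28 on the log2 scale, and 0 with DESeq2. Of the 2, *Rps3* lost its call without Activin-A replicate 1 or without replicate 2 or 3 with both factors (adjusted p up to 0.183).

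IFN-γ without Activin-A offered the comparison nearest to this one. It used untreated cells and so shared no well with it. edgeR called 830 genes there (9.25%), 577 higher (6.43%) and 253 lower (2.82%). With DESeq2 434 were higher and 127 lower. Of the 554 genes higher with Activin-A present, 402 were also higher in its absence, 72.6% of the first list and 69.7% of the second. Of the 309 lower genes 116 were shared, 37.5% and 45.8%. Across the 8971 genes, which are not independent replicates, the log2FC of both comparisons had a Pearson's r of 0.819. Whether a gene's response differed was tested by the interaction of both factors, and 1 gene of 8971 passed (0.0111%), with 612 at an unadjusted p under 0.05 and 0 called by DESeq2.

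That gene was *Cth*, cystathionine γ-lyase, which makes cysteine. It averaged 42.4 ± 4.45 CPM (SD, n = 4) in untreated cells, 60.1 ± 5.54 with IFN-γ, 72.1 ± 3.15 with Activin-A and 50.8 ± 10.4 with both factors. Thus IFN-γ raised it without Activin-A (log2FC 0.52, adjusted p = 0.0122) and lowered it in its presence (log2FC -0.50, SE 0.14, adjusted p = 0.0123), and the difference was -1.02 (SE 0.21, adjusted p = 0.0359). The wells with both factors were at 35.2, 55.2, 56.7 and 56.1 CPM, with replicate 1 below the other 3, and without it the fall with Activin-A present was not called (adjusted p = 0.152). The interaction itself was lost in 7 of 16 fits with 1 well left out, each of untreated replicates 1, 2 and 3, IFN-γ replicates 1 and 4, Activin-A replicate 3 and replicate 1 with both factors, and with DESeq2 its adjusted p was 0.676. *Psph*, of serine synthesis, and *Gadd45a* were among the genes that followed (interaction -0.77 and -0.65, each with an adjusted p of 0.0652). *Psph* was called without untreated replicate 4, IFN-γ replicate 3 or replicate 2 with both factors (adjusted p down to 0.0112), *Gadd45a* without Activin-A replicate 2 or IFN-γ replicate 3 (down to 0.0266), and both without the filter on low counts.

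The interaction estimates were 0.00 (SE 0.16) for *Irf1*, 0.01 (SE 0.42) for *Cd274*, -0.07 (SE 0.06) for *B2m*, -0.14 (SE 0.10) for *H2-K1* and -0.33 (SE 0.13) for *Gbp2*, the last with an adjusted p of 0.574. Larger estimates, which did not pass the test, were found for *Cxcl10* (-0.76, SE 0.23, adjusted p = 0.258), *Isg15* (-0.57, SE 0.17, adjusted p = 0.258), *Serping1* (-0.87, SE 0.29, adjusted p = 0.395), *Casp4* (-1.73, SE 0.65, adjusted p = 0.485) and *Oas3* (-1.39, SE 0.53, adjusted p = 0.511). *Isg15* was called when IFN-γ replicate 3 was left out. *Iigp1* (1.04, SE 0.29, adjusted p = 0.231) and *Cx3cl1* (0.69, SE 0.23, adjusted p = 0.378) had estimates in the other direction. *Cxcl10*, for example, averaged 34 ± 6.29 CPM in untreated cells, 239 ± 55.7 with IFN-γ, 37.3 ± 8.79 with Activin-A and 152 ± 29.9 with both. Of 181 genes that had been raised at least 2-fold at 4 h, in wells that enter neither comparison at 12 h, 115 had a lower log2FC with Activin-A present, with a median difference of -0.103, whereas 4570 of all 8971 genes did, with a median difference of -0.005. This is a description across genes without a test.

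**Figure D4:**
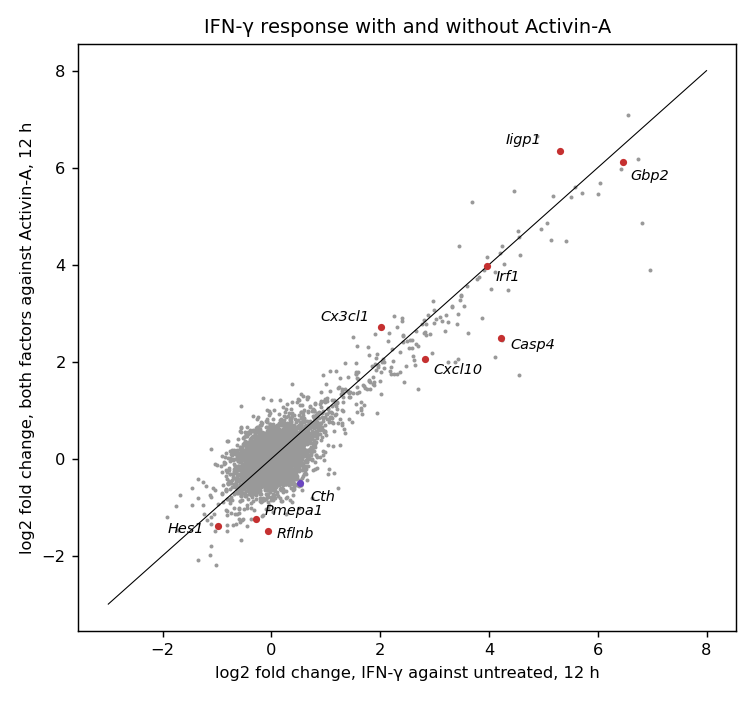
Log2 fold change at 12 h of IFN-γ against untreated cells (horizontal axis) and of both factors against Activin-A (vertical axis) for 8971 genes, each point a gene, with the line of equal response. Points follow the line (r = 0.819 across genes), and *Cth*, in purple, is the gene whose interaction passed the test.

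For genes of the Activin-A pathway, genes named with them and *Rflnb*, the levels in all 4 groups show where the wells with both factors lay. *Pmepa1* averaged 38.7 ± 7.87 CPM in untreated cells, 31.1 ± 2.35 with IFN-γ, 140 ± 41 with Activin-A and 59.4 ± 13.4 with both factors (interaction -0.94, SE 0.25, adjusted p = 0.18), and its interaction was called without the filter on low counts. *Rflnb* averaged 6.7 ± 1.71, 6.85 ± 3.82, 27.4 ± 4.08 and 9.68 ± 2.13 CPM in the same order (interaction -1.43, SE 0.52, adjusted p = 0.478). For both genes the mean with both factors lay between those with IFN-γ and with Activin-A. This did not hold for *Nefl*, at 675 ± 23.2, 311 ± 20.7, 342 ± 29.1 and 204 ± 7.53 CPM, or for *Fst*, at 616 ± 19.7, 1634 ± 55.3, 517 ± 55.05 and 1656 ± 42.7 CPM. *Ccn2*, at 134 ± 11.6, 143 ± 8.63, 495 ± 49.2 and 406 ± 26.9 CPM, and *Acta2*, the smooth muscle actin, at 447 ± 35.4, 364 ± 18.8, 705 ± 29.5 and 685 ± 26.9 CPM, stayed nearer to their levels with Activin-A.

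The same comparison at 4 h called 555 of 9137 genes (6.07%), 403 higher (4.41%) and 152 lower (1.66%). In those wells, Activin-A replicate 1 stood apart from the other 3 (chi-squared per gene from 2.6 to 3.07, against at most 1.55 in the other pairs), and without it 515 genes were called. With DESeq2 319 genes were higher and 61 lower at 4 h. The lower count was 100 without replicate 2 and 97 without replicate 4 with both factors. Of the genes higher at 12 h 323 were already higher at 4 h, 58.3% of the list at 12 h and 80.1% of that at 4 h. Of the lower genes 56 were shared, 18.1% and 36.8%. *Irf1* had a log2FC of 4.40 at 4 h and 3.96 at 12 h, *Socs1* 2.26 and 2.25, and *Cd274* 4.45 and 4.56.

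The difference between both times was tested over all 32 wells and called 61 of 9332 genes (0.654%), 33 with a higher (0.354%) and 28 with a lower log2FC at 12 h (0.3%). Without the deviating well 72 genes were called, 52 of them among the 61. Genes of antigen presentation were among those with a stronger response at 12 h. *H2-K1* went from a log2FC of 0.90 at 4 h to 2.45 at 12 h (difference 1.56, SE 0.11, adjusted p = 2.83e-21), *H2-D1* from 0.80 to 1.99 and that of *B2m* was 0.69 higher at 12 h. *H2-T23* differed by 1.39, *Tapbp* by 1.22, *Psme2* by 0.77 and *Psme1* by 0.75. In all, 5 of the 8 tested MHC class I genes and 3 of the 6 inducible proteasome subunits were called higher at 12 h. The fifth class I gene, *H2-T22* (adjusted p = 0.0492), lost its call with a replicate block (adjusted p = 0.0528) and in 11 of 16 fits with a well left out (adjusted p up to 0.201). *Ly6a* had the largest difference among the higher genes (1.78, SE 0.18, adjusted p = 1.41e-12), and *Serping1* (1.41), *Ccl2* (1.35), *Gbp3* (1.18), *Bst2* (0.89) and *Ifitm3* (0.47) were also called, of which *Gbp3* lost its call in 2 and *Serping1* in 1 of 16 fits with a well left out. *Psmb9* (1.5, adjusted p = 0.0342) and *Egr1* (0.72, adjusted p = 0.0453) lost their calls in 8 and 10 of 16 fits with a well left out, with adjusted p up to 0.132 and 0.2, the latter without the deviating well.

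Genes with a lower log2FC at 12 h included *Pmepa1* and matrix genes. *Pmepa1* had a log2FC of -0.15 at 4 h and -1.24 at 12 h (difference -1.09, SE 0.17, adjusted p = 8.02e-06), *Prss23*, a secreted serine protease, 0.46 and -1.24 (difference -1.71, SE 0.24, adjusted p = 3.70e-07), *Bmp4* 0.54 and -1.49 (difference -2.03, SE 0.46, adjusted p = 0.00721) and *Sparc* -0.04 and -0.55. The level with Activin-A alone could itself differ between times, with CPM normalized separately at each time. *Bmp4* averaged 7.94 CPM at 4 h and 25.6 CPM at 12 h with Activin-A, and 11.9 and 9.13 CPM with both factors. *Pmepa1* averaged 327 and 140 CPM with Activin-A, and 296 and 59.4 CPM with both factors. *Col3a1*, *Col6a1* and *Col5a2* differed by -0.60, -0.71 and -0.55, the last losing its call in 10 of 16 fits with a well left out (adjusted p up to 0.129). 4 of the 26 tested collagen and matrix genes were called in this direction. *Tenm4* (difference -2.29, adjusted p = 0.0221) and *Ablim1* (difference -2.19, adjusted p = 0.0453) had the lowest values, from low counts, and lost their calls in 7 and 11 of 16 such fits, with adjusted p up to 0.102 and 0.265. *Ablim1* also lost it with a replicate block (adjusted p = 0.0528), and DESeq2 gave no adjusted p for *Tenm4*, *Ablim1*, *Prss23* or *Bmp4*. *Ablim1* had a log2FC of 3.25 at 4 h and 1.05 at 12 h. Its call at 12 h (adjusted p = 0.0193) was lost without Activin-A replicate 3 or 4 or without replicate 2 with both factors (adjusted p up to 0.115) and with DESeq2 (adjusted p = 0.11).

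**Figure D5:**
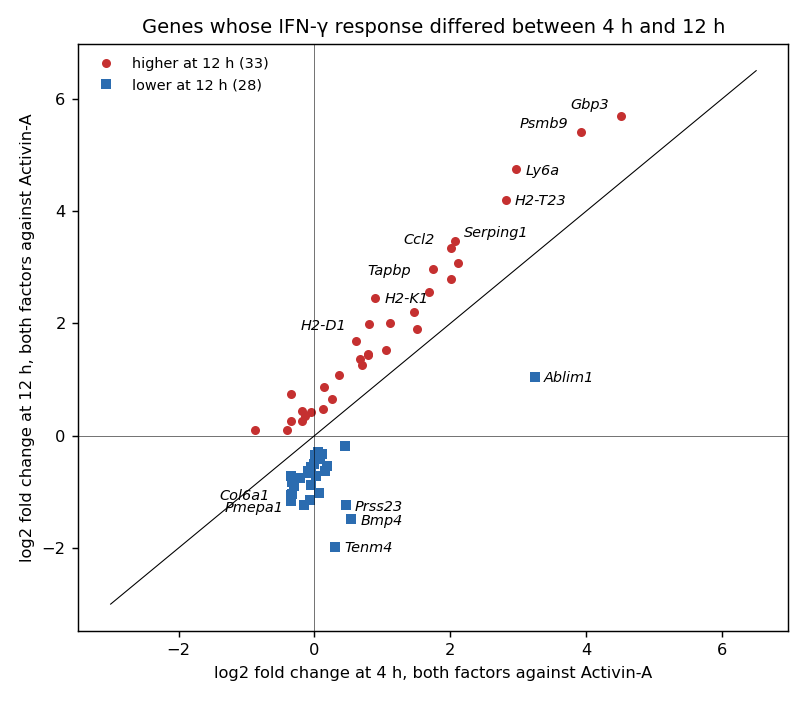
Log2 fold change of both factors against Activin-A at 4 h (horizontal axis) and at 12 h (vertical axis) for the 61 genes whose response differed between the times, 33 with a higher value at 12 h (red circles) and 28 with a lower one (blue squares), with the line of equal response. *H2-K1*, *Ly6a* and *Psmb9* lie above the line, and *Pmepa1*, *Bmp4* and *Col6a1* lie below 0 at 12 h.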

How the data were processed

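BRB-seq libraries were sequenced from YUMM3.3 wells, 4 in each of 8 groups. Per the submitters' processing notes, the authors used STAR 2.7.10b, featureCounts, DESeq2 1.36.0 and the mouse genome GRCm39 (mm39). The deposited values were raw counts for 12451 genes, all detected in at least 4 wells. The handling of molecular identifiers is not given in the sources used here. Symbols were matched for 12437 genes, with 14 unmatched. Because 3′ ends are counted, isoforms are not resolved, and reads shared by near-identical copies were assigned by the authors' counting.

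From these counts, CPM with TMM normalization, log2FC, SE and adjusted p (Benjamini-Hochberg, threshold 0.05) were computed with edgeR 4.0.16 (filterByExpr, quasi-likelihood test, two-sided) in R 4.3.3, over the 16 wells of a time point, or all 32 for the difference between times. SE was the log2FC divided by the root of its F statistic. Ratios of genes with 1 to 3 counts in the lower group have exact 95% counting intervals. On simulated data, with 200 of 8927 genes changed, the test recovered 66 of 66 genes at 4-fold, 56 of 67 at 2-fold and 27 of 67 at 1.5-fold, with 5 false calls. The changed genes were drawn only from those above a minimum mean level, and the same spread between wells was set for all genes. These shares therefore do not cover genes at low levels. The interaction and the difference between times were not simulated. Totals were 803370 to 1249145 counts in the 8 wells compared.

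Genes were named by a rule: the 15 highest and 15 lowest log2FC among called genes with at least 10 counts on average in the higher group and wells that did not overlap, a list of key genes, the 4 smallest p of each gene list, genes called in the interaction, and the 5 highest and 5 lowest in the difference between times. The members and lists were chosen with earlier results of these data known. Alternatives were DESeq2 1.42.0, RLE scaling, other filters, thresholds and samples, a replicate block and leaving out each well. Promoter windows came from RefSeq's GRCm38.p6 annotation, which is not the build of the counts. Results of some genes are not reported here.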

Additional observations from a re-analysis of the deposited data

Results flagged for a closer look

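In 19 of 326 groups of 4 wells (5.83%), 1 well lay apart from the other 3 by Dixon's test, and chance alone gives about 1 in 20. With Activin-A, replicate 1 was high for *Gbp6* (0.803 CPM, others 0) and *Dct* (88.3, others 69.6 to 70.9), and replicate 2 was high for *Parp9* (26.2, others 19.9 to 20.9). Replicate 4 with Activin-A was high for *Socs3* (48.5, others 30 to 32.9), *Cd74* (166, others 154 to 156), *Sat1* (140.0, others 112 to 117) and *Ski* (194, others 136 to 141), and low for *Nlrc5* (3.73, others 9.31 to 9.71) and *Slc45a2* (12.4, others 20.9 to 21.7). With both factors, replicate 1 was low for *Tgtp1* (40.9, others 46.2 to 46.7), *Gadd45a* (79.4, others 109 to 114) and *Cth* (35.2, others 55.2 to 56.7). Replicate 2 was high for *Lgals3* (1350.0) and *Trim12a* (23.7, others 11.3 to 13.3), and low for *Wars* (1160.0). Replicate 3 was high for *Xaf1* (198, others 162 to 168). Replicate 4 was high for *Ly6c1* (136, others 122 to 124) and *Gpnmb* (154, others 134 to 137), and low for *Erap1* (117, others 133 to 135).

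The response differed between 12 h and 4 h, by the test over all 32 wells, for 24 of the named genes. The log2FC was higher at 12 h for *Ly6a* (1.78), *H2-K1* (1.56), *Psmb9* (1.5), *Serping1* (1.41), *H2-T23* (1.39), *Ccl2* (1.35), *Tapbp* (1.22), *H2-D1* (1.18), *Gbp3* (1.18), *Bst2* (0.89), *Psme2* (0.77), *Psme1* (0.75), *Egr1* (0.72), *B2m* (0.69) and *Ifitm3* (0.47). It was lower for *Tenm4* (-2.29), *Ablim1* (-2.19), *Bmp4* (-2.03), *Prss23* (-1.71), *Pmepa1* (-1.09), *Col6a1* (-0.71), *Col3a1* (-0.60), *Col5a2* (-0.55) and *Sparc* (-0.50). The response differed with Activin-A for *Cth* (-1.02).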

How the results depend on the processing

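For both factors against Activin-A at 12 h, 549 genes passed with DESeq2 against 863, 558 at an adjusted p of 0.01 and 259 with an absolute log2FC of at least 1, and 728 to 777 with a well left out. The interaction gave 0 genes with DESeq2, 8 without the filter on low counts, 0 at an adjusted p of 0.01 and 0 to 6 with a well left out, against 1. With an absolute log2FC of at least 1, 240 genes passed for IFN-γ against untreated cells, 196 at 4 h and 18 in the difference between times, where 39 passed at an adjusted p of 0.01. With a well left out these 3 counts were 689 to 771, 462 to 537 and 50 to 72. Other scalings, filters and samples kept these 5 counts over all genes within 1.5 times. With at least 10 counts in every sample, which tests fewer genes, list counts moved further: Gbp 2 against 5, Irg 3 against 8, cytokines 2 against 7, sensors 4 against 10, Trim 4 against 11, inducible proteasome 3 against 6, PARPs 4 against 8 and antiviral effectors 12 against 20. No sign changed among those of the 863 genes that had a value, 683 with that filter, 826 with only the groups compared and at least 862 otherwise. Of 160 tested named genes 134 kept their call and 26 did not, 21 of them with DESeq2. The settings were DESeq2, RLE scaling, no filter on low counts, a replicate block, other samples in the fit and each well left out. The stricter thresholds were not part of this count. Genes below 10 counts in a sample had no value under the filter of at least 10 counts in every sample. Genes that were not called changed sign with a well left out: *Cxcl9* (log2FC from -0.0543 to 0.2002, with -0.0064 in a further fit), *Dct* (from -0.1117 to 0.0285) and *Slc45a2* (from -0.0278 to 0.3129). The causes were not tested.

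Same-numbered wells of both groups did not deviate together (r from -0.0377 to 0.00896, none of 4 over 0.1). The labels do not say whether such wells share more than a number, and these correlations cannot decide it. With a replicate block 847 genes were called at 12 h, 822 for IFN-γ against untreated cells, 530 at 4 h, 61 in the difference between times and 1 in the interaction, and 1 named gene changed its call at 12 h and *Ablim1* and *H2-T22* lost theirs in the difference between times (adjusted p = 0.0528 each). Depth limits the genes removed as too low, which were not tested in the main fits. Without the filter on low counts 12448 genes were tested at 12 h and 901 called, and DESeq2 tested 11482.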
